A study of Mus musculus with 16 samples.

Results

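Reduced representation bisulfite sequencing (RRBS) compared 2 libraries of established induced pluripotent stem cells (iPSCs) with 2 libraries of cells on day 12 (D12) of a chemical reprogramming course. These 4 are among 16 libraries of the series, in 8 groups of 2. The strain label, which the iPSCs also carry, names E13.5 embryos of the 129XOG2 cross. The OG2 parent carries a green fluorescent reporter driven by regulatory DNA of the pluripotency gene Pou5f1 (Oct4). The D12 cells were mouse embryonic fibroblasts (MEFs), seeded at passages 1 to 3 and kept in a reprogramming medium whose composition is not given in the labels. They are labelled reprogramming intermediates and are a bulk population. The iPSCs grew on feeder cells in medium with 1000 units/mL of LIF, 3 μM of the GSK3 inhibitor CHIR99021 and 0.2 μM of the MEK inhibitor PD0325901. The labels are silent on their passage, on their parent culture and on whether feeder cells were removed, so time in culture, medium and cell identity cannot be told apart in this comparison. The files hold no expression values, and the labels were not checked against marker genes. Sites were kept where each of the 4 libraries had at least 10 reads, which gave 1195534 autosomal sites. Tiles of 1 kb with at least 3 such sites numbered 121054. These tiles were the units of the test.

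In mammals most CpG dinucleotides carry methylated cytosine, while CpG islands, the CpG-dense stretches at many gene starts, are usually free of it. Dnmt1, guided by Uhrf1, copies the mark to new DNA strands, Dnmt3a and Dnmt3b add it anew, and Tet enzymes oxidise it, which can lead to its removal. Mouse pluripotent cells grown with MEK and GSK3 inhibitors can carry low genome-wide methylation, and naive pluripotency is accompanied by a broad loss of the mark in the early embryo. RRBS cuts DNA at CCGG with MspI, so that CpG-dense DNA is over-represented, and bisulfite turns unmethylated cytosine into a base read as thymine. The methylation level is the percentage of reads that still show cytosine.

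The sequence around 4 gene starts shows what the read-outs below count, and the capitals mark CpGs, each CG being 1 of them. Col1a2 encodes a chain of type I collagen and Med26 a subunit of the Mediator complex, and both starts were lower in iPSCs. Tex101 encodes a germ-cell surface glycoprotein and Dctd the enzyme dCMP deaminase, and both were higher. The letters come from RefSeq (GRCm38.p6), 5′ to 3′ on the gene's strand, from 250 bases before the start to 50 after it. The place given is where the spacing of these CpGs was found among the GRCm39 positions of the deposited sites: chr6:4505368-4505667 (plus strand) for Col1a2, chr8:73302105-73302404 (minus strand) for Med26, chr7:24371426-24371725 (minus strand) for Tex101 and chr8:48551877-48552176 (plus strand) for Dctd.
Col1a2: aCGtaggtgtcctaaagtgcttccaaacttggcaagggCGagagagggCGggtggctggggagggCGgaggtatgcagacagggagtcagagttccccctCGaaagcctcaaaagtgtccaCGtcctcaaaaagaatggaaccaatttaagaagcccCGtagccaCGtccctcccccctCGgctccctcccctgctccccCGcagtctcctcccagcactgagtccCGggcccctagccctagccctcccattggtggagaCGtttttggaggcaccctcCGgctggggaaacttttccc
Med26: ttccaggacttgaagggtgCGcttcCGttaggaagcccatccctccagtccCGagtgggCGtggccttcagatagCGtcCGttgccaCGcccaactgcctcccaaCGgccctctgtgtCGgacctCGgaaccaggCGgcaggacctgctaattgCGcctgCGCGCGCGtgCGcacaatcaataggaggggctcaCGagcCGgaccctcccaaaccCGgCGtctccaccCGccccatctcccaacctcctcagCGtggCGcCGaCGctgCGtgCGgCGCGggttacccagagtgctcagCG
Tex101: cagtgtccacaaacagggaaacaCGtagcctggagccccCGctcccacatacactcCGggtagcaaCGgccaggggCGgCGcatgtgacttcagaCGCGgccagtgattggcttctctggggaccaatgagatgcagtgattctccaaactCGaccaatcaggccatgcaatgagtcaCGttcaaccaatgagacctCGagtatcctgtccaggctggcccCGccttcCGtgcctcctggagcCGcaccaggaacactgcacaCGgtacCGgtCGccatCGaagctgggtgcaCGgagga
Dctd: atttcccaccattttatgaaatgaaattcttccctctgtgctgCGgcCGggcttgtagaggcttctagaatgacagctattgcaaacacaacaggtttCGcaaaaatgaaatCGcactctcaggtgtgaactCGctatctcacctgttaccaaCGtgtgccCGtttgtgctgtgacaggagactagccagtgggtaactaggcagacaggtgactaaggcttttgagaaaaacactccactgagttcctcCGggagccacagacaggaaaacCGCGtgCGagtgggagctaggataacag

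In the Col1a2 window, which holds 13 CpGs, 11 sites had reads enough in the 4 libraries. Their levels had medians of 25.0% and 33.3% in the D12 libraries and 0% and 0% in the iPSC libraries, and at 11 of 11 sites both D12 libraries lay above both iPSC libraries. In the denser Med26 window, with 31 CpGs, the 13 measured sites had medians of 27.0% and 39.2% at D12 and 0% and 0% in iPSCs, again with no overlap at any of the 13. The Dctd window was the reverse: its 17 sites, on the forward and reverse strands of 10 CpGs, had medians of 12.8% and 12.7% at D12 and 93.5% and 90% in iPSCs, and 17 of 17 were higher in iPSCs without overlap. Only 3 sites were measured in the Tex101 window, with medians of 7.14% and 36.4% at D12 and 89.2% and 55.6% in iPSCs, so the D12 libraries differed there although all 3 sites were higher in iPSCs. Neighbouring sites can be read on the same molecules, so the sites of a window are not separate observations. All 11 Col1a2 sites, for example, were read on the reverse strand, with 10 to 22 reads each in D12 replicate 1.

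Across the autosomal sites, methylation was higher in both iPSC libraries than in both D12 libraries. In the D12 libraries the mean site level was 20.0% and 19.8%, and in the iPSC libraries 49.3% and 49.2%. The difference was 29.4 points ± 0.112 (SE, n = 2 and 2), with an exact two-sided permutation p of 0.333, the smallest that 2 libraries against 2 allow. Fully methylated sites were nearly absent at D12. Sites at 80% or more made up 0.538% and 0.501% of the D12 libraries and 34.6% and 34.5% of the iPSC libraries, while sites at exactly 0% were about equally common, at 13.6% and 13.6% against 14.3% and 13.8%. The median D12 site was at 15.8% in both libraries, and 41.3% and 41.1% of sites lay between 20% and 80%. The site levels of the iPSC libraries followed each other closely (Pearson r = 0.931 across sites) and those of the D12 libraries less so (r = 0.553). The mean absolute differences between replicates were closer, at 9.955 points for iPSCs and 12.15 points for D12. D12 sites spanned a narrower range of levels, which can lower r. These r values are across sites of 1 pair of libraries and carry no test.

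Methylation was higher in iPSCs in most of the measured autosomal genome and lower in a small set of tiles. By edgeR's quasi-likelihood test with Benjamini-Hochberg adjustment (adjusted p under 0.05 and a difference of at least 10 points), 92899 tiles (76.7%) were higher in iPSCs, 2044 (1.69%) were lower and 26111 were not called. The lower count fell to 938 with at least 20 reads per site, among 72825 tiles, and to 379 with a minimum of 25 points. Of the 1600 lower tiles that all 16 libraries covered, 66.9% were also called when all 16 were fitted together. The higher tiles had mean levels of 19.9% and 19.7% at D12 and 66.6% and 66.4% in iPSCs, with a median difference of 47.5 points. The lower tiles stood at 26.4% and 26.4% at D12 and 7.61% and 7.60% in iPSCs, with a median difference of -16.9 points. These means describe tiles chosen for their difference. Of the tiles not called, 42.7% were under 20% in each of the 4 libraries. By chromosome, the share of higher tiles ranged from 72.4% on chromosome 11 to 79.7% on chromosome 16. The share of lower tiles ranged from 1.41% on chromosome 18 to 1.98% on chromosome 19. Within tiles the sites moved together in part. In the median higher tile, 83.3% of sites were higher in both iPSC libraries than in both D12 libraries, and in the median lower tile 76.8% of sites were lower in this way.

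The CpG number of a tile separated the tiles that were higher from those that were not. CpGs were counted as the distinct CpGs listed for the tile in any of the 16 libraries, and thus reflect RRBS coverage of the tile as well as its sequence. Of tiles with 1 to 4 listed CpGs, 88.8% were higher in iPSCs and 0.182% lower. With 5 to 9 CpGs the shares were 83.7% and 0.754%, and with 10 to 19 they were 65.9% and 3.00%. Of the 10362 CpG-rich tiles, those with at least 20 listed CpGs, 20.9% were higher and 9.05% were lower. These shares depended on the definition: in tiles with at least 30 listed CpGs, 6.54% were higher and 11.7% lower, so that lower calls outnumbered higher calls there, and with a minimum difference of 25 points 1.30% of CpG-rich tiles were lower. CpG-rich tiles made up 8.56% of all tiles, 2.33% of the higher tiles and 45.9% of the lower tiles. The median CpG-rich tile had 662 reads per library summed over its sites and the median tile with 1 to 4 CpGs had 157, with a read counted at each CpG it covers. The median gap between the D12 replicates was nonetheless similar, at 5.22 and 5.19 points.

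At D12 the mean level varied less across the classes of CpG number than in iPSCs, and without a steady trend. Tiles with 1 to 4 CpGs had a mean of 17.9% and 17.6% in the D12 libraries, and CpG-rich tiles had 16.8% and 16.7%. In iPSCs the same classes stood at 60.1% ± 0.134 (SD, n = 2) and 21.4% ± 0.198. The CpG-poor tiles therefore lay above the CpG-rich tiles by 1.13 and 0.882 points at D12 and by 38.7 and 38.8 points in iPSCs. This gap was 37.7 points ± 0.132 (SE) wider in iPSCs (exact two-sided permutation p = 0.333, the smallest possible). Tiles with 10 to 19 CpGs had the highest D12 mean, 22.1% ± 0.0899 (SD, n = 2).

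**Figure D1:**
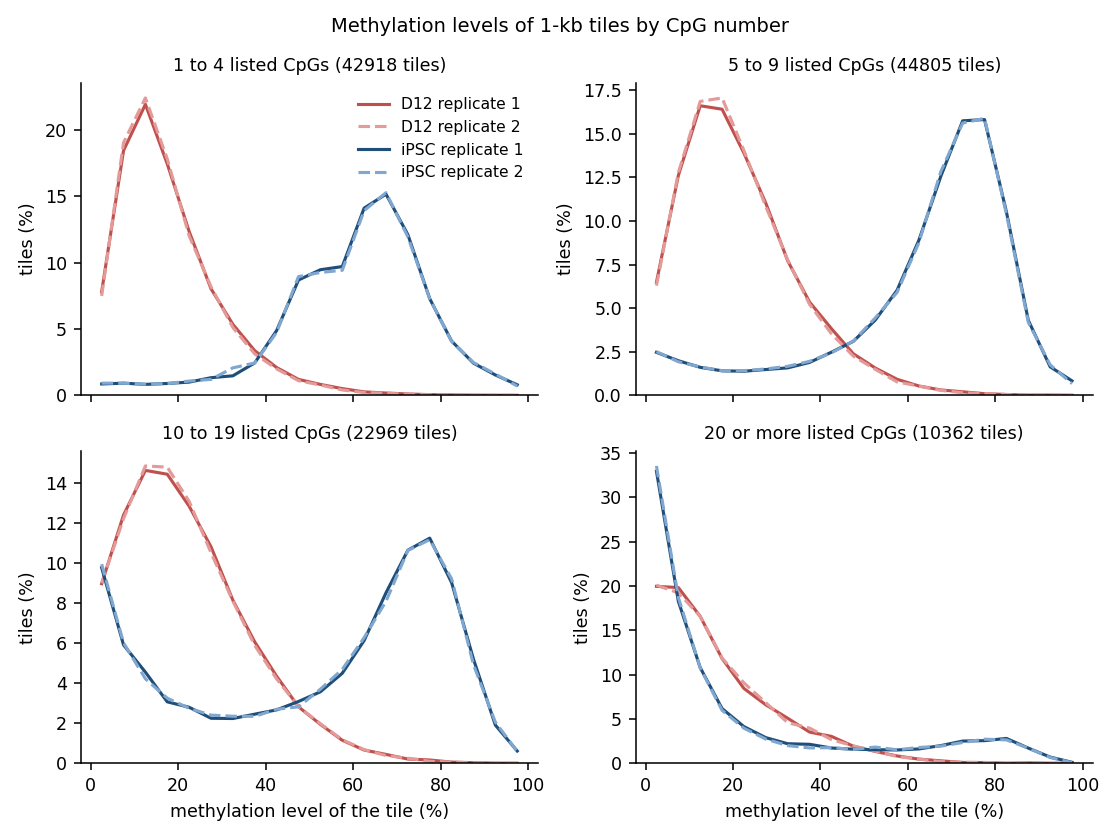
Share of 1-kb tiles (vertical axis, percent) by methylation level (horizontal axis, percent, in steps of 5 points) for each library, in 4 classes of listed CpGs; the vertical scales differ between panels. The D12 libraries have a single low peak in each class, the iPSC libraries peak at high levels in tiles with fewer than 10 CpGs (class means 60.1% and 63.2%), split into a low and a high group with 10 to 19 CpGs and lie mostly near 0 with 20 or more (mean 21.4%).

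CpG-rich tiles were surrounded by a narrow zone in which iPSCs lay less far above D12. In tiles 1 kb from the nearest CpG-rich tile (start to start), the D12 libraries had mean levels of 16.3% and 16.2% and the iPSC libraries 29.6% and 29.3%. At 2 kb it was 18.5% and 17.9% against 50.3% and 50.2%, and at 50 kb or more it was 20.9% and 20.7% against 63.3% and 63.1%. The D12 class means thus stayed between 16.2% and 20.9% at all distances, while most of the rise of the iPSC level occurred within 2 kb. The share of tiles higher in iPSCs was 36.2% at 1 kb, 69.0% at 2 kb, 76.6% at 3 to 4 kb, 79.1% at 5 to 9 kb, 81.9% at 10 to 49 kb and 87.2% at 50 kb or more. The share of lower tiles fell from 5.77% at 1 kb to 1.34% at 2 kb and 0.600% at 50 kb or more.

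**Figure D2:**
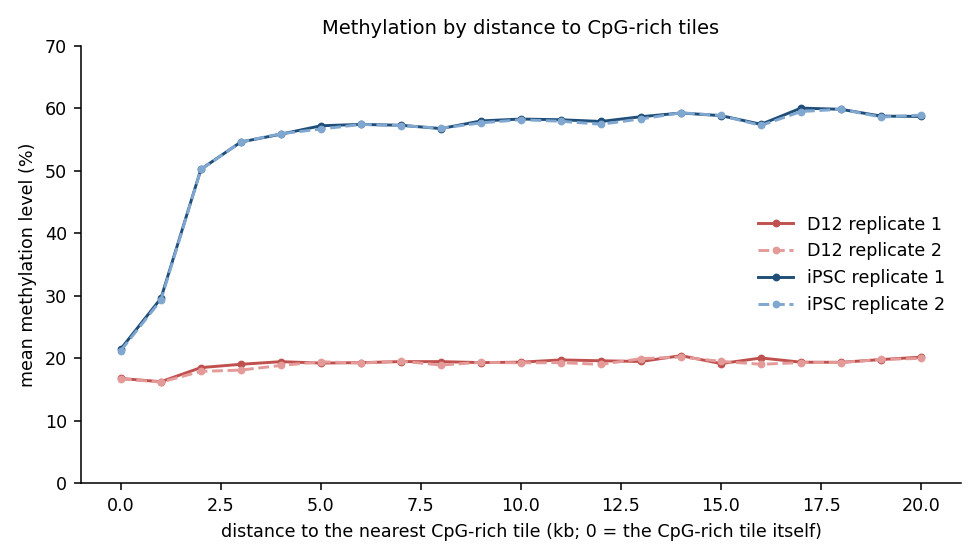
Mean methylation level of tiles (vertical axis, percent) against the distance to the nearest CpG-rich tile (horizontal axis, kb, with 0 for the CpG-rich tile itself), 1 line per library. The iPSC lines climb from 21.5% and 21.2% at 0 to 50.3% and 50.2% at 2 kb and then rise slowly, and the D12 lines stay between 16.2% and 20.4%.

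Tiles near CpG-rich tiles also hold more CpGs, so the classes were crossed. Among tiles with only 1 to 4 CpGs, 47.8% were higher at 1 kb, 77.3% at 2 kb and 91.7% at 50 kb or more. Among tiles with 10 to 19 CpGs the shares were 27.5%, 55.9% and 73.6%. The share of higher tiles therefore increased with distance within each class of CpG number, and decreased with CpG number at each distance. The share of lower tiles in these classes was highest, at 7.72%, with 10 to 19 CpGs at 1 kb and lowest, at 0.0610%, with 1 to 4 CpGs at 50 kb or more.

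**Figure D3:**
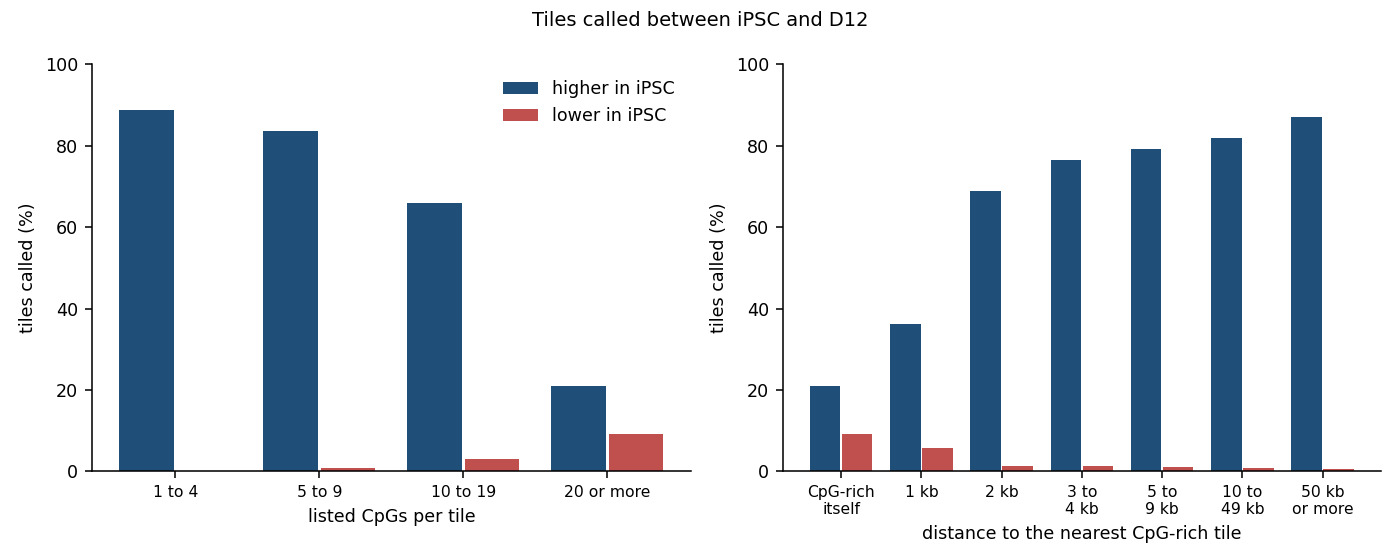
Percent of tiles called higher (blue) and lower (red) in iPSCs than at D12 (vertical axis), by listed CpGs per tile (left) and by distance to the nearest CpG-rich tile (right). The blue bars fall from 88.8% to 20.9% with CpG number and rise from 20.9% to 87.2% with distance, and the red bars run the opposite way.

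The call of a CpG-rich tile was set beside those of its neighbours. Next to a CpG-rich tile that was higher in iPSCs, 78.6% of 985 tiles were higher and 0.305% lower. Next to a CpG-rich tile that was lower, 18.1% of 364 tiles were higher and 15.7% were lower, and next to a CpG-rich tile without a call the shares among 3125 tiles were 23.9% and 6.30%. Calls of adjacent tiles share their libraries, and these shares are given as a description.

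The D12 level varied with the level a tile had in iPSCs. Tiles at 40% to 60% in iPSCs stood at 17.7% and 17.4% in the D12 libraries, those at 80% to 90% stood at 28.8% and 28.6%, and those at 90% or more at 36.0% and 35.7%. Among the tiles at 80% to 90% in iPSCs, the D12 mean rose over the 4 CpG classes, from 24.2% in the sparsest through 28.1% and 32.3% to 37.7% in the 442 CpG-rich tiles. The 73 CpG-rich tiles at 90% or more in iPSCs stood at 50.5% and 48.7% at D12. At the other end, tiles under 5% in iPSCs stood at 8.38% and 8.48% at D12, so the D12 libraries read above the iPSC libraries in tiles with almost no methylation in iPSCs. The tiles were classed by their iPSC level, which widens such a difference. The share of unconverted cytosines was not measured, as the deposited files list CpG sites alone, and its part in the low-level differences was not tested.

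The largest increases went from near 0 to near full methylation. Tiles were named by rank among those with at least 5 sites, at least 100 reads in each library (summed over sites) and groups that did not overlap. A tile on chromosome 3 (144819001 to 144820000, GRCm39, 4 CpGs) was at 4.27% and 4.71% at D12 and 95.5% and 93.3% in iPSCs (edgeR adjusted p = 0.00106). Increases of 88.3 and 87.3 points followed at 62256001 to 62257000 on chromosome 10 and at 31405001 to 31406000 on chromosome 15. The next were 85.5 points (chromosome 5, 106643001 to 106644000) and 85.3 points (chromosome 7, 67340001 to 67341000). These 5 tiles held 3 to 7 CpGs and lay at least 5 kb from a CpG-rich tile. Among CpG-rich tiles the largest increase, on chromosome 6 (137700001 to 137701000, 20 CpGs), was from 9.76% and 15.5% to 92.9% and 90%. The longest stretches of adjacent higher tiles covered 7 kb, on chromosome 2 (32102001 to 32109000) and chromosome 4 (43421001 to 43428000), and 3 stretches tied at this length. The first stood at 22.2% and 23.9% at D12 and 70.2% and 63.9% in iPSCs and the second at 17.98% and 17.9% against 62.3% and 60.1%. Both include tiles with more than 20 listed CpGs, so a higher level in iPSCs crossed CpG-rich DNA there.

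The largest decreases were smaller and the D12 libraries often disagreed in them. A CpG-rich tile on chromosome 5 (93090001 to 93091000, 42 CpGs) was at 73.4% and 100% at D12 and 24.3% and 31.3% in iPSCs, which narrowly passed the threshold (edgeR adjusted p = 0.0485). Without iPSC replicate 1 or 2 its adjusted p was 0.0949 and 0.0724. A tile on chromosome 1 (39027001 to 39028000, 11 CpGs) went from 84.4% and 46.6% to 8.77% and 13.2%. Another on chromosome 1 (40719001 to 40720000, 10 CpGs) had D12 libraries close together, at 55.2% and 52.2%, and iPSC libraries at 3.33% and 9.47% (adjusted p = 0.00242). On chromosome 13 (5114001 to 5115000, 7 CpGs) the levels were 75.8% and 76.4% against 40.6% and 24.7%. The CpG-rich tile on chromosome 7 (24206001 to 24207000) holds the start of Zfp428, described below. Called tiles of both directions mostly stood alone, with 70154 of 80786 runs of higher tiles and 1753 of 1897 runs of lower tiles holding 1 tile. The 3 longest runs of lower tiles held 3 tiles, including 66984001 to 66987000 on chromosome 6 (52.5% and 48.3% against 30.3% and 30.1%) and 82277001 to 82280000 on chromosome 11 (12.4% and 15.9% against 2.82% and 1.84%).

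Because calls rest on the libraries that chose them, tiles that differed by at least 10 points were also chosen in replicate 1 and read in replicate 2. Of 99818 tiles higher in replicate 1, 98.6% were higher in replicate 2 too, where their means were 20.5% at D12 and 64.9% in iPSCs. Of 4772 tiles lower in replicate 1, 72.0% were lower in replicate 2 and 39.8% were lower by at least 10 points, with means of 21.7% at D12 and 14.7% in iPSCs, against 30.4% and 11.1% in the replicate that chose them. Choosing in replicate 2 and reading in replicate 1 gave 70.4% of 4884 tiles, and 38.9% by at least 10 points. The decreases were thus smaller in the replicate that did not choose them. The share of comparable tiles that were lower without being chosen was not counted, so these shares have no reference. The chosen lower tiles held a median of 16 and 17 CpGs. For scale, the median difference was -1.12 points over all CpG-rich tiles and 36.3 points over tiles with 10 to 19 CpGs. In the 2044 tiles called lower, the D12 replicates were 7.12 points apart in the median, against 5.15 points in the higher tiles and 7.5 points in tiles not called.

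The other 12 libraries place these tiles in the course of reprogramming. Of the lower tiles, 1600 also had the required reads in all 16 libraries, and 1192 of them (74.5%) were under 20% in MEFs at D0. These were at 8.62% ± 0.0789 (SD, n = 2) at D0, 13.4% at D8 and 9.80% at D10, against 20.1% at D12 and 4.40% in iPSCs. Their mean level was highest at D12 among the 8 groups, and the D12 libraries had helped to choose them. A second set of 217 tiles (13.6%) was at 50% or more at D0. It went from 80.7% at D0 and 73.6% at D6 to 57.2% at D10, 40.6% at D12 and 18.6% in iPSCs, so its level fell through the course and was lowest in iPSCs. Among CpG-rich lower tiles, 82.8% of 808 belonged to the set that was low at D0, against 59.6% of 223 lower tiles with 5 to 9 CpGs. Low D0 levels were common outside the lower tiles too. Of 18228 tiles not called, 63.6% were under 20% at D0 and 21.6% were at 50% or more. CpG-rich tiles had a mean D0 level of 13.8% if not called and 15.6% if lower. Of the 72555 higher tiles with reads in all 16 libraries, 61041 (84.1%) were at 50% or more at D0, with 72.3% at D0, 31.5% at D10, 19.7% at D12 and 69.1% in iPSCs. In 1305 higher tiles that were under 20% at D0, the levels were 12.8% at D0, 7.13% at D10, 7.41% at D12 and 39.5% in iPSCs, so iPSCs were methylated at places that were low in the MEFs and throughout the course. The D0, D12 and iPSC values partly chose these sets, while those of D2 to D10 did not.

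**Figure D4:**
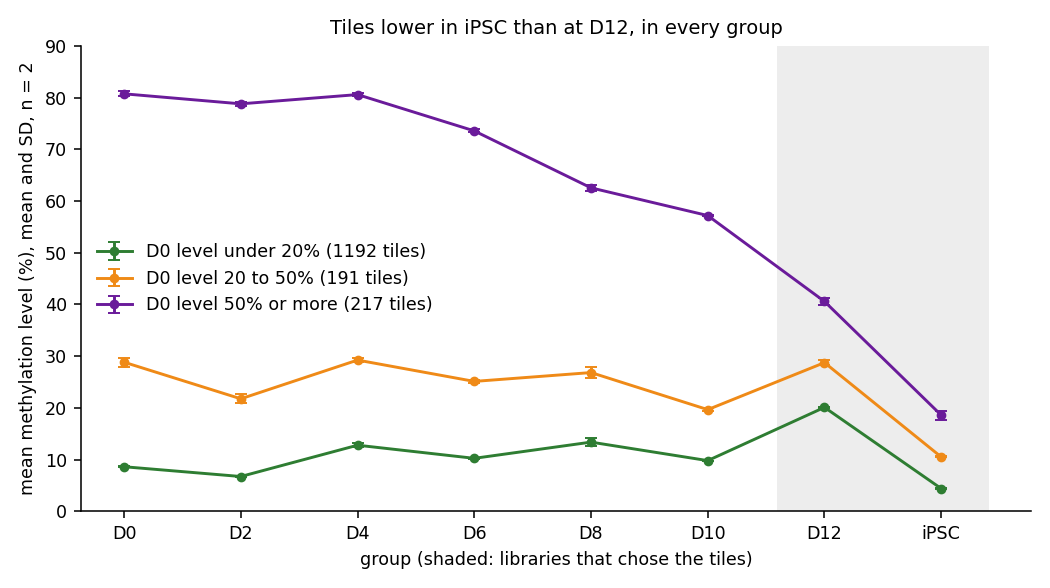
Mean methylation level (vertical axis, percent, mean and SD over 2 libraries) in each group of the series (horizontal axis) for the 1600 tiles lower in iPSCs than at D12, split by their D0 level. The tiles under 20% at D0 lie between 6.73% and 13.4% from D2 to D10 and at 20.1% at D12, and those at 50% or more at D0 decline from 80.7% to 18.6%.

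Gene starts were placed by matching the CpG spacing of RefSeq promoter sequences to the listed CpGs, which located 5463 genes and put a start in 3632 tested tiles. The method needs CpG-dense starts, so genes with few CpGs are under-represented. Each promoter sequence was searched on its own, so the located start of a gene need not be its main one. Of these tiles, 7.38% were higher in iPSCs and 11.6% lower, against 76.7% and 1.69% of all tiles. Their D12 means were 13.1% and 13.2%, against 11.3% and 11.02% in the iPSC libraries. The difference from other tiles was also there within the densest class. Of 2550 CpG-rich tiles with a located start, 3.92% were higher and 12.1% lower, against 26.5% and 8.06% of 7812 CpG-rich tiles in which no start was located, some of which may hold one. CpG number was not held fixed in this class: the median number of measured sites was 24 with a located start and 20 without. Over all tiles with at least 30 listed CpGs, 6.54% were higher and 11.7% lower. CpG-rich tiles with a start had means of 12.8% and 13.1% in the D12 libraries, against 9.10% and 8.88% in the iPSC libraries.

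Gene starts that were higher in iPSCs included genes of several functions. The following were named by the size of the difference, after their values were seen. Levels of other groups, here and below, use only sites with at least 10 reads in all 16 libraries. These can be fewer than the sites behind the D12 and iPSC levels. At such sites the Dctd difference was 67.5 points, against 69.5 points over its sites in the 4 libraries. Dctd (chromosome 8) was at 10.9% and 17.3% at D12 and 84.5% and 82.7% in iPSCs over 17 sites (edgeR adjusted p = 0.00106), and at 82.1% and 78.9% in MEFs. Slc41a3, a member of a family of magnesium transporters, was at 12.9% and 17.2% against 82.2% and 81.9%. Atp2b2, a plasma membrane calcium pump, was at 9.71% and 9.78% against 68.7% and 62.9%, and Slc8a1, the sodium-calcium exchanger, at 13.4% and 27.9% against 78.6% and 73.8%. Taf1c, a subunit of the RNA polymerase I selectivity factor, was at 17.7% and 18.95% against 73.0% and 79.1%. Fcamr, a receptor for IgA and IgM, was at 23.9% and 12.9% against 75.6% and 75.1%. Arpp21, a phosphoprotein known from neurons, was at 25.3% and 8.48% against 72.3% and 71.5%, above the 40.5% and 39.3% of its MEF libraries. The others of the 12 largest were Ccn6, Ccdc27, Tc2n, Lrit3 and Arhgef3, with increases of 55.2 to 60.7 points. All 12 tiles held fewer than 20 listed CpGs.

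Of the 423 tiles with a located start that were lower in iPSCs, 308 were CpG-rich. This was close to the share among all tiles with a located start, where 2550 of 3632 were CpG-rich. Siva1, a pro-apoptotic protein, was at 39.7% and 41.4% at D12 and 0% and 0% in iPSCs over 10 sites (edgeR adjusted p = 0.0011). Med26 was at 26.4% and 35.8% against 0% and 0.623% over 20 sites. It stood at 5.70% and 1.27% in MEFs, at 24.3% and 4.73% at D2 and at 19.1% and 31.6% at D8. At D10 it was at 28.3% and 5.63%, where the libraries disagreed. Mrps27, of the mitochondrial ribosome, and Ptcd2, a mitochondrial RNA-binding protein, have their starts in the same tile, at 39.7% and 36.2% against 5.83% and 3.92%. Srp54a, of the signal recognition particle, was at 40.1% and 36.9% against 7.45% and 3.45%. Sirt5, a mitochondrial deacylase, was at 53.6% and 29.7% against 8.82% and 6.81%. Its earlier libraries were at 0.778% and 27.3% at D8 and at 0% and 0% at D10. Atad5, which unloads the replication clamp PCNA, was at 58.6% and 27.7% against 9.39% and 4.00%. Wdr75, of ribosome biogenesis, was at 54.7% and 38.9% against 3.42% and 11.9%. The largest decrease by mean, at Zfp428, rested on D12 libraries far apart, at 70.5% and 17.9%, against 0% and 1.10% in iPSCs. Kdf1, Cyb5d2 and Rapgef6 completed the list, with decreases of 34.2 to 37.0 points. 3 of these calls were lost in an alternative: Atad5 with the strands of a CpG merged (adjusted p = 0.0656), Kdf1 without iPSC replicate 2 (0.0602) and Rapgef6 with all 16 libraries in the fit (0.134).

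Of 66 genes in lists of pluripotency, germline, fibroblast and DNA methylation genes, 12 had a located start in a tested tile, and 3 of these were higher, 2 lower and 7 not called. Over all tiles with a located start, 7.38% were higher and 11.6% lower. Germline genes, whose CpG-rich starts are commonly methylated in somatic cells, gave 4 of the 12. Tex101 was at 19.02% and 24.0% at D12 and 69.4% and 65.9% in iPSCs (edgeR adjusted p = 0.00151), close to its 73.1% and 75.5% in MEFs. Tdrd1, a Tudor protein of the piRNA pathway, was at 27.4% and 27.5% against 64.1% and 51.2% (adjusted p = 0.0149). Its promoter window had only 1 measured CpG, read on both strands, and the medians there were 52.9% and 58.8% at D12 against 34.5% and 40.6% in iPSCs, so the sites outside the window carried the call. Without iPSC replicate 1 or 2 the adjusted p was 0.132 and 0.0524. Ddx4, an RNA helicase that marks germ cells, was lower in iPSCs, at 38.6% and 25.1% against 10.3% and 17.96% (adjusted p = 0.0453), and was at 55.1% and 76.3% in MEFs. That call was lost in 5 alternatives, among them without D12 replicate 1 (adjusted p = 0.127), without iPSC replicate 1 (0.213) or 2 (0.0551) and with the strands merged (0.0997). Slc25a31, a testis ADP/ATP carrier, was at 40.5% and 10.98% at D12 and 39.04% and 36.8% in iPSCs and was not called. Without D12 replicate 1 it was higher in iPSCs by 26.9 points (adjusted p = 0.00569), and without D12 replicate 2 the difference was -2.59 points (adjusted p = 0.643).

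Among the fibroblast genes, Col1a2 was lower in iPSCs, at 25.0% and 29.4% against 1.84% and 1.15% over 12 sites (edgeR adjusted p = 0.00115). Twist2, a mesenchymal transcription factor, was higher, at 2.67% and 0.840% at D12 and 16.5% and 13.0% in iPSCs (adjusted p = 0.00524), in a tile with 49 CpGs. Zeb2, a transcription factor of mesenchymal cells, was at 8.73% and 10.4% against 1.00% and 6.33%, and Fbn1, which encodes fibrillin, at 0.885% and 3.74% against 5.59% and 1.13%, and neither was called. None of the 3 pluripotency genes was called. Esrrb, an orphan nuclear receptor of naive cells, was at 19.3% and 17.6% against 25.3% and 28.5%, and Tdgf1, a co-receptor of Nodal, at 12.7% and 11.6% against 13.8% and 15.6%. A start of Pou5f1 was at 24.7% and 27.9% against 22.8% and 23.9%, below the 44.7% and 45.5% of MEFs. Its tile had only 4 measured sites. Of these, 50% were lower and 50% higher in both iPSC libraries than in both D12 libraries, so the tile level averages opposite differences. Reads of the endogenous Pou5f1 gene and of the reporter transgene cannot be told apart where they share sequence. Uhrf1 was at 25.7% and 27.1% against 18.6% and 16.2%, without overlap but under the 10-point minimum and with an adjusted p of 0.0607 in edgeR.

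**Figure D5:**
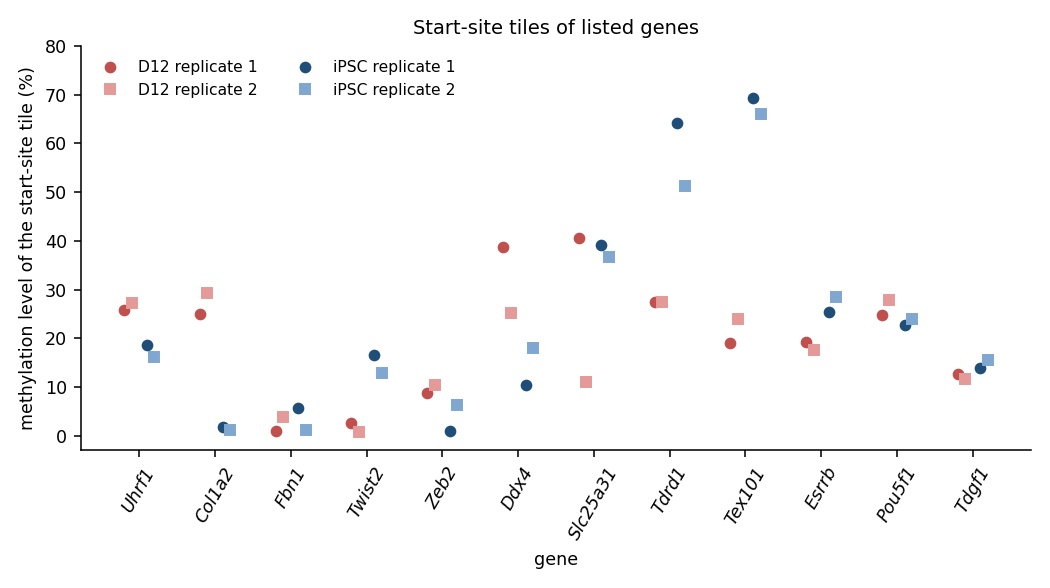
Methylation level (vertical axis, percent) of the tile holding a located start of each of the 12 listed genes (horizontal axis), 1 point per library. Tex101 and Tdrd1 are higher in both iPSC libraries, Col1a2 is near 0 in both, and the D12 libraries of Slc25a31 lie at 40.5% and 10.98%.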

How the data were processed

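DNA was cut with MspI, bisulfite-converted, amplified for 15 PCR cycles and read to 150 bp, per the labels' protocols. The submitters' processing notes name fastp 0.20.1, Bismark 0.23.0, Bowtie2, methylKit and build GRCm39. Not given in the sources used here: trimming, filled-in ends and duplicate handling. No molecular identifiers are described, so reads may be copies of a molecule.

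The deposited tables give coverage, a count of reads per CpG and strand, and the percent of reads with C and with T, per the file headers. Coverage times percent gave whole methylated reads at each site (0 exceptions). Coverage summed over sites was 76775447 and 66643255 for D12 and 47714197 and 52424087 for iPSC. In such sums, also those of tiles, a read is counted at each CpG it covers. The labels do not state separate cultures, so p-values measure the spread between libraries, which may be technical.

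Tiles were tested with edgeR 4.0.16 (glmQLFit, glmQLFTest, in R 4.3.3) on the 4 libraries' counts of methylated and of unmethylated reads, with library effects and a common dispersion. The script was tested on simulated data. Single values per library were compared by exact permutation. Alternatives changed the coverage and site minimums, strands, difference minimum, model, libraries and CpG-rich threshold. Named tiles were the 5 largest each way, the 2 largest each way per class of CpG number and of distance, and the longest runs; the text gives some of them. X and Y stayed out of the main test.

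No GRCm39 annotation was used. RefSeq promoters (GRCm38.p6) were placed by their CpG spacing in the listed sites, an addition made after the files were opened. Of 32851 sequences, 18541 had CpGs enough to search and 5986 matched 1 place. Of these, 19 lay on another chromosome than the table names and were dropped. Reversed sequences matched 13 times, and 0 of 5947 neighbouring pairs were out of order. The score threshold was chosen among several from those counts. The members and lists were chosen with earlier results of these data known.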

Additional observations from a re-analysis of the deposited data

How the results depend on the processing

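Among the named tiles and gene starts, no called difference changed sign in the alternatives run. The sign turned at 3 gene starts that were not called: Slc25a31 (12.2 points as reported, and -2.59 to 26.9 with a library left out), Tdgf1 (2.56, and -3.36 with strands merged) and Fbn1 (1.05, and -1.18 to 3.28 with a library left out, of which -0.376 was without D12 replicate 1). With at least 20 reads per site, which left 72825 tiles, 57960 were higher in iPSCs and 938 lower. With a minimum difference of 25 points, 379 tiles were lower, and 1.30% of CpG-rich tiles. With CpG-rich defined from 15 listed CpGs, 33.99% of those tiles were higher. Defined from 30, 6.54% were higher and 11.7% lower, which turns their order, and 22.2% of the tiles next to them were higher. Leaving out each library in turn gave 78072 to 94565 higher and 1909 to 2637 lower tiles, with the lone library of a group assumed to vary like the other group. The iPSC minus D12 difference was 29.3 to 29.5 points over those 4 settings and 33.5 with at least 20 reads.

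Replicate numbers of the groups did not move together (Pearson r = 0.00149 across tiles). Whether libraries of equal number share a culture or a batch was not tested. With the replicate block, 92631 tiles were higher and 2457 lower. Of the lower calls, 93.9% were also made with the block, 94.6% by the quasi-binomial model, 89.6% with strands merged and 66.9% when all 16 libraries were fitted together. Of 67 named tiles and gene starts, 57 had the same direction and call in every setting run. Not every setting could be run for each: with at least 20 reads per site only 32 remained. None of the gene starts called lower was among those 32. Zfp428 counts both as a tile and as a gene start, and Mrps27 and Ptcd2 share a tile.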

Other observations

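The sex chromosomes, left out of the main test, gave shares of their own. On X, 78.3% of 2814 tiles were higher in iPSCs and 1.599% lower, with mean levels of 20.8% and 20.9% at D12 and 58.1% and 57.8% in iPSCs. On Y, 93.2% of 249 tiles were higher, at 23.7% and 24.2% against 74.4% and 72.8%.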
